A study of Mus musculus with 6 samples.

Results

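The enzymes of glycolysis and gluconeogenesis were taken as the genes that the deposited annotation places in the KEGG pathway 00010 (Glycolysis / Gluconeogenesis) and not in the pathway 00020 (Citrate cycle). The rule found 58 of 33919 genes. It left out 7 genes that are in both pathways: Dlat, Pdhx, Dld, Pdhb and Pdha1 of the pyruvate dehydrogenase complex, and Pck1 and Pck2, which make phosphoenolpyruvate. Of the 58 genes, 32 belong to the 11 enzyme steps from glucose to lactate and 8 to gluconeogenesis or to the handling of glucose phosphates. The remaining 18 are Aldoart1, a retrogene of aldolase A, and genes of the alcohol, aldehyde and acetate reactions that KEGG draws at the end of the pathway. The filter on low counts passed 47 of them, and 11 were not tested: Hkdc1, Aldoc, Gapdhs, Pgk2, Eno4, Pklr, Ldhal6b, Fbp1, G6pc, Adh4 and Aldoart1, each with at most 30 counts in any library.

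The study compared mouse aorta from animals labelled WT and animals labelled KO, 3 libraries in each group, all given Ang II (angiotensin II), a hormone that constricts vessels. The series title names the deubiquitinase OTUD1 in endothelium, the labels name the allele as KO alone, and neither the cells in which it was removed nor the dose and duration of Ang II are given in the sources used here. Both groups received Ang II, so all values compare treated animals. The labels give no animal identifiers, and p-values therefore measure the spread between these libraries. Otud1 itself was higher in KO-labelled libraries, with 8.83, 11.6 and 9.83 CPM (counts scaled to library size, here with trimmed-mean or TMM factors) in WT-labelled libraries and 14.5, 15.6 and 16.8 in KO-labelled ones, which goes against the label, so groups are named by their labels throughout. If the labels were exchanged, every rise and fall given here would turn around. The tissue label is aorta, the RNA protocol mentions an adipose type, and markers of skeletal muscle stood far above those of smooth muscle in all 6 libraries. Total counts ran from 62.3 to 71.5 M (M, megacounts). Leaving out mitochondrial genes and nuclear copies of them, WT-labelled libraries held 17.3 to 19.4 M counts and KO-labelled ones 22.97 to 23.4 M.

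Glycolysis splits glucose into pyruvate and recovers part of the energy as ATP, and lactate dehydrogenase turns the pyruvate into lactate when it is not sent to mitochondria. Most steps are carried by several isoforms, some of them found in nearly every cell and others made mainly in skeletal muscle, where fast fibres rely on the pathway during contraction. Gluconeogenesis runs many of the same reversible enzymes backwards and replaces the irreversible steps by enzymes of its own, chiefly in liver and kidney.

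Many enzymes of glycolysis were higher in KO-labelled libraries, among them Hk2, Gpi1, Aldoa, Eno1 and Ldha. Of the 47 tested members, 19 rose and 3 fell (edgeR's quasi-likelihood test, Benjamini-Hochberg adjusted p under 0.05 over 16620 genes). Among all genes tested, 11.5% were called higher and 10.5% lower, 22.0% in all. DESeq2 called 20 members higher and 5 lower, where it called 12.6% and 12.7% of the genes it tested. Limma on log2(FPKM + 1) used the deposited FPKM with no TMM or median-ratio scaling and tested 35 members. It called 20 higher and 1 lower, against 32.0% and 9.04% of genes. On TMM-scaled counts, edgeR's test against a 1.2-fold change called 15 higher and 2 lower, against 5.87% and 6.38%. The median log2 change was 0.17 over the tested members, against -0.02 over all tested genes. The calls lay mainly in the 11 steps, where 15 of 25 tested members rose, none fell, and the median log2 change was 0.57. Of the tested members, 21 had values in KO-labelled libraries that all lay above those labelled WT and 7 the reverse, where 19.3% and 19.4% of all tested genes did. In each of the 11 steps, the member with the highest FPKM (fragments scaled to gene length and library size) was among those called higher, though the calls of Gapdh and Pgam2 were lost in some alternatives.

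The summed level of the enzymes was also higher, though a few abundant members make up most of these sums. Aldoa, Pgam2 and Eno3 held on average 31.7%, 24.1% and 13.4% of the summed FPKM of all 58 members in WT-labelled libraries. In KO-labelled ones they held 35.0%, 18.9% and 13.2%. The summed CPM of the 11 steps was 6135, 6069 and 6196 in WT-labelled libraries and 9573, 9408 and 9207 in KO-labelled ones, a ratio of 1.53. The groups did not overlap, and the exact two-sided permutation test gave p = 0.1, the smallest that 3 against 3 libraries allow. Summed deposited FPKM of all 58 members was 2374 ± 142 (SD, n = 3) in WT-labelled libraries and 3701 ± 212 (SD, n = 3) in KO-labelled ones, a ratio of 1.56. After FPKM was scaled by median ratios over all genes the ratio was 1.40. Members took 2.26% to 2.31% of the counts outside mitochondrial genes and copies in WT-labelled libraries and 3.06% to 3.13% in KO-labelled ones.

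Marker genes of several cell types also differed between the groups, in both directions. Over all tested genes, 11.5% were called higher and 10.5% lower. Of 20 markers of skeletal muscle fibres, 15 rose and 2 fell, and their summed CPM went from 29385 to 29851 in WT-labelled libraries to 36415 to 37664 in KO-labelled ones, a ratio of 1.25. Single fibre markers ranged widely: the fast myosin Myh4 was 2.69-fold higher, Myh2 2.05-fold, Atp2a1 1.75-fold, Neb 1.72-fold and Acta1 1.62-fold higher, each a larger change than that of the summed step enzymes. Tnnc2 did not pass (log2 difference 0.0068), Ckm was 1.06-fold higher, and Mb and Pvalb were 1.42-fold and 1.72-fold lower. Of 9 slow fibre markers, 2 rose and 6 fell (2306 to 2388 against 1608 to 1666 summed CPM, ratio 0.694). Of 10 smooth muscle markers, 0 rose and 8 fell (549 to 557 against 178 to 182), and Myocd, a defining factor of smooth muscle, had 0 counts in each KO-labelled library. The other lists had these ratios of summed CPM: 0.921 for 10 endothelial markers (2 rose, 4 fell), 1.14 for 9 brown adipocyte markers (4 rose, 3 fell) and 0.955 for 9 adipocyte markers (3 rose, 4 fell). Of 10 fibroblast markers 0 rose and 9 fell (ratio 0.369), of 10 tested hepatocyte markers 1 rose and 8 fell (0.165), and of 6 tested erythroid markers 0 rose and 5 fell (0.359). Of 8 neutrophil markers 5 rose and 1 fell (5.05), with Retnlg at 0 in each WT-labelled library, and the erythroid gene Epb42 was at 0 in each KO-labelled one. In bulk tissue, fewer cells of a type and less RNA per cell cannot be told apart, and the part of these cell types in the changes of the glycolytic enzymes was not tested.

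**Figure D1:**
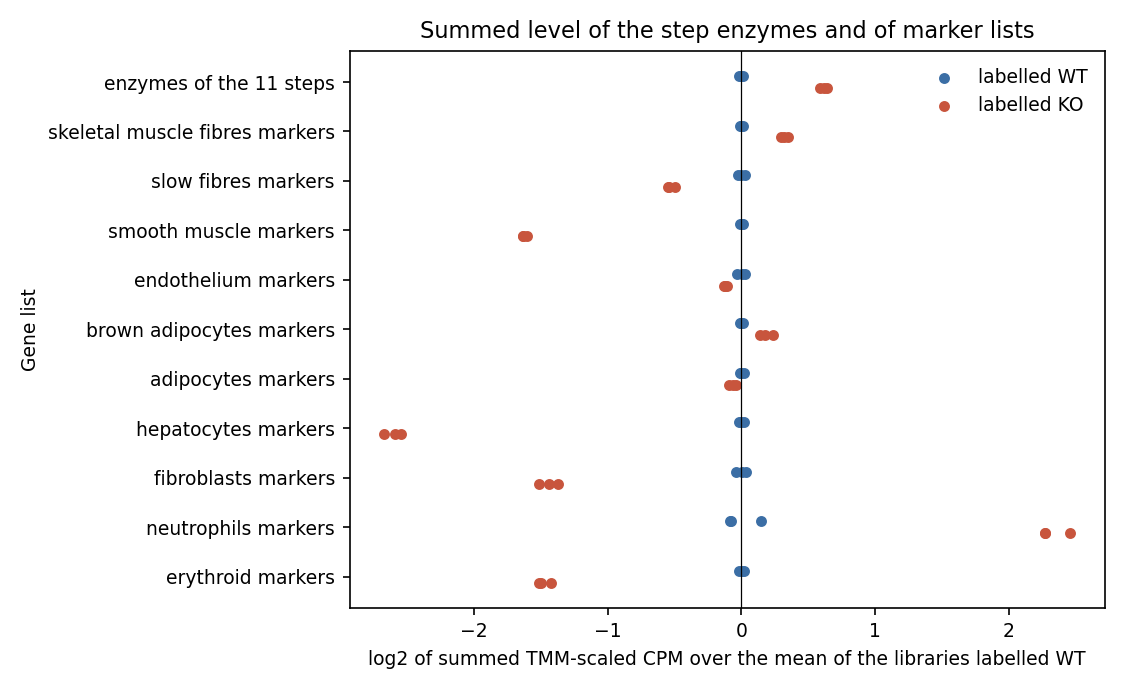
Summed TMM-scaled CPM of the enzymes of the 11 steps and of 10 marker lists, as log2 over the mean of the WT-labelled libraries (x axis), 1 point per library. The step enzymes lie to the right in KO-labelled libraries (ratio 1.53), as do skeletal muscle (1.25), brown adipocyte (1.14) and, furthest, neutrophil markers (5.05). Slow fibre, smooth muscle, fibroblast, hepatocyte and erythroid markers lie to the left, and endothelial and adipocyte markers slightly to the left.

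Promoters of 4 members that rose are shown, and they do not stand for all members. The ubiquitous and muscle enolases Eno1 and Eno3 and the muscle hexokinase Hk2 come from the isoform pairs with the widest contrast between groups. Hk1, the partner of Hk2, was not called and is not shown. The lactate dehydrogenase Ldha comes from the end of the pathway. Each line gives the 250 bases before a RefSeq transcription start (GRCm38.p6), 5′ to 3′ on the gene's strand, and capitals mark ACGTG or GCGTG on either strand (the core of the hypoxia response element) or CACGTG (the E-box, a palindrome that holds the core on both strands). The Ldha line belongs to a start 4329 bases from the deposited gene start, the nearest in the RefSeq table.
Eno1 (chr4:150236458-150236707, plus strand): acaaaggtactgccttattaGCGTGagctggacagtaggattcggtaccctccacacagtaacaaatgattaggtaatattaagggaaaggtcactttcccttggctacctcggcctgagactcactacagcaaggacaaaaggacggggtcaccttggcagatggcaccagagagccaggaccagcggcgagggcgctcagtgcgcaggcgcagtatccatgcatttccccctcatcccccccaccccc
Eno3 (chr11:70656926-70657175, plus strand): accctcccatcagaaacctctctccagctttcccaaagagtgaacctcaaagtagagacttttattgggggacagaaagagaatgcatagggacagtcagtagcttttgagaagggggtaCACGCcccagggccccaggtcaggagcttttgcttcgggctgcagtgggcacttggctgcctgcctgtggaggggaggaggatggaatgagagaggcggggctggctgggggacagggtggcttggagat
Hk2 (chr6:82774455-82774704, minus strand): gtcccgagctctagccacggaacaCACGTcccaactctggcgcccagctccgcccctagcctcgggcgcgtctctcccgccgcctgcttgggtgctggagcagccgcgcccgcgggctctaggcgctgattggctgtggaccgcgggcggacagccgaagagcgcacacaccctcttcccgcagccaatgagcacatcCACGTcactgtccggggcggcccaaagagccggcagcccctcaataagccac
Ldha (chr7:46845554-46845803, plus strand): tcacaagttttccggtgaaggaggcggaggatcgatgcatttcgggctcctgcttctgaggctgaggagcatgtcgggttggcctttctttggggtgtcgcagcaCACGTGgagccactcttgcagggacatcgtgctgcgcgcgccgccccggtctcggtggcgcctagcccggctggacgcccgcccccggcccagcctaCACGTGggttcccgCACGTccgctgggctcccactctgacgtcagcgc

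Within these stretches the core matched once in Eno1 and in Eno3, at 2 places in Hk2, and 5 times in Ldha, 2 of whose 3 capitalised stretches are E-boxes and count on both strands. In the same stretch of other members called higher, it matched 0 times in Aldoa, Gpi1, Tpi1, Pgam2, Pkm and Acss1, and 2 times each in Pgk1 and Pfkm. Among members not called, it matched 3 times each in Pgam1 and Pfkp and 0 times in Hk1. RefSeq promoters were found for 48 of the 58 members (63 windows of 250 bases before to 50 after a start). The hypoxia core was present in 65.1% of the member windows, in 74.0% of the 50 windows of tested members, in 77.8% of the 27 windows of members called higher, and in 43.8% of all 32851 promoter windows. An E-box was present in 9.52% of member windows and 7.15% of all windows. For the muscle factor MEF2, only 2 exact forms of its motif were searched, on both strands. They were in 0 of the 63 member windows and in 0.274% of all windows. Other forms of the motif were not searched, so this count cannot show whether member promoters lack MEF2 sites. All windows include promoters of genes that were not tested, and the share over windows of tested genes was not computed. A gene with several starts counts once for each window. These matches are a description of letters and were set against no binding data.

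The first steps trap glucose in the cell and commit it to the pathway. Hk2 (ENSMUSG00000000628, chromosome 6, 82725025 to 82774454, minus strand, GRCm38), the insulin-responsive hexokinase of muscle and fat, had 27.9, 28.3 and 29.4 CPM in WT-labelled libraries and 63.96, 57.99 and 57.2 in KO-labelled ones. Every library labelled KO lay above every library labelled WT, a log2 change of 1.06 (SE 0.070, 2.09-fold higher, edgeR adjusted p = 1.8e-06). Hk1, the hexokinase of most other tissues, had 13.4, 12.6 and 13.8 CPM in WT-labelled libraries and 11.3, 11.96 and 9.97 in KO-labelled ones, a log2 difference of -0.26 that did not pass (edgeR adjusted p = 0.12). As a share of the FPKM of the step, without Adpgk, Hk2 took 66.6% to 69.4% in WT-labelled libraries and 81.9% to 83.1% in KO-labelled ones, and Hk1 21.5% to 22.4% and 10.1% to 11.95%. Hk3 and Adpgk, an ADP-dependent glucokinase, stayed at a mean FPKM under 1 in both groups and did not pass.

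Gpi1 (ENSMUSG00000036427, chromosome 7, 34201330 to 34230336, minus strand), which turns glucose phosphate into fructose phosphate, had 289, 285 and 279 CPM in WT-labelled libraries and 540.4, 540.0 and 529 in KO-labelled ones. The spread within a group was small beside the log2 change of 0.92 (SE 0.033, 1.89-fold, edgeR adjusted p = 2.6e-08). Of the 3 phosphofructokinases, which catalyse the committed step, 2 rose. Pfkm, the muscle subunit, had 266, 251 and 275 CPM in WT-labelled libraries and 457, 437 and 419 in KO-labelled ones (log2 change 0.73, SE 0.046, edgeR adjusted p = 1.4e-06). Pfkl, the liver-type subunit that many tissues make, had 36.1, 36.1 and 40.6 against 69.5, 66.5 and 70.6 CPM (log2 change 0.87, SE 0.068, edgeR adjusted p = 6.6e-06). Both moved without overlap between groups, while Pfkp, the platelet-type subunit, had a log2 difference of 0.17 that did not pass (edgeR adjusted p = 0.21).

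The middle of the pathway splits the sugar and makes the first ATP. Aldoa (ENSMUSG00000030695, chromosome 7, 126795234 to 126800751, minus strand), the aldolase of muscle and many other tissues, was the most abundant member. It had a deposited FPKM of 751 ± 37.3 (SD, n = 3) in WT-labelled libraries and 1297 ± 73.8 (SD, n = 3) in KO-labelled ones. Its counts gave 2561, 2528 and 2541 against 4038, 3954 and 3870.5 CPM (log2 change 0.64, SE 0.024, 1.55-fold, edgeR adjusted p = 2.6e-08). Tpi1, which interconverts the triose phosphates, rose by 0.60 on the log2 scale (SE 0.045), from 308, 296 and 331 to 484, 477 and 459 CPM. Pgk1, the kinase that makes ATP from the oxidised triose, rose by 0.57 (SE 0.053), from 115, 123 and 130.2 to 181, 177 and 187 CPM. For both enzymes the groups were far apart relative to their spread (edgeR adjusted p = 5.3e-06 for Tpi1 and 2.6e-05 for Pgk1).

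Gapdh, which oxidises the triose phosphate between these steps, is uncertain here. Its FPKM was 8.22 ± 0.558 (SD, n = 3) in WT-labelled libraries and 17.4 ± 7.58 (SD, n = 3) in KO-labelled ones, far under that of its neighbours Aldoa and Tpi1, and only 32.8% to 50.1% of the counts in Gapdh and 4 near-identical copies (Gapdh-ps14, Gapdh-ps15, Gapdh-ps16 and Gm3839) were assigned to it. It had 42.4, 38.5 and 37.8 CPM in WT-labelled libraries and 56.95, 115 and 55.7 in KO-labelled ones, so 1 library labelled KO lay far above the other 2. The log2 change was 0.94 (SE 0.23, edgeR adjusted p = 0.013). The call was lost without replicate 2 or replicate 3 labelled WT and with robust shrinkage, and without replicate 2 labelled KO the change was 0.51. Summed over Gapdh and its copies, CPM was 110, 101 and 102 in WT-labelled libraries and 174, 229 and 170 in KO-labelled ones, a ratio of 1.83 with no overlap. The other 8 step enzymes checked for such copies held at least 92.9% of their family's counts in each library.

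The mutase step held the smallest change of any member called higher. Pgam2, the muscle phosphoglycerate mutase and the second most abundant member at an FPKM of 573 ± 42.02 and 700.2 ± 55.6 (SD, n = 3 each), had 558, 546 and 574 CPM in WT-labelled libraries and 647, 594 and 607 in KO-labelled ones. The log2 change of 0.14 (SE 0.039, 1.1-fold, edgeR adjusted p = 0.027) passed, but not without replicate 1 or 2 labelled WT or replicate 1 labelled KO, nor when tested against a 1.2-fold change. Pgam1, the form of most tissues, had 34.2, 35.5 and 36.2 against 34.3, 37.1 and 37.3 CPM, overlapping values that did not pass. Bpgm, which makes bisphosphoglycerate in red cells, had a log2 difference of -0.18 that did not pass either (edgeR adjusted p = 0.41), beside the erythroid markers that fell in the same libraries.

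The enolases held the largest rise of any tested member. Eno1 (ENSMUSG00000063524, chromosome 4, 150236721 to 150248879, plus strand), the alpha-enolase of most cells, had 105, 109.8 and 103 CPM in WT-labelled libraries and 317, 305 and 309 in KO-labelled ones. The log2 change was 1.55 (SE 0.043, 2.93-fold higher, edgeR adjusted p = 5.6e-09), and it was between 1.53 and 1.57 with any library left out. Eno3 (ENSMUSG00000060600, chromosome 11, 70657202 to 70662513, plus strand), the beta-enolase of muscle, had 636, 640.2 and 652 CPM in WT-labelled libraries and 901, 889.9 and 874 in KO-labelled ones. It rose by less (log2 change 0.47, SE 0.029, 1.38-fold, edgeR adjusted p = 1.2e-06), although it remained the main enolase by FPKM, at 318 ± 18.6 and 488 ± 24.9 against 16.9 ± 0.344 and 55.03 ± 2.95 for Eno1 (SD, n = 3 each). Eno1b, a retrotransposed copy of Eno1 whose reads may be shared with it, rose by 0.61 (edgeR adjusted p = 0.015), a call lost without replicate 1 or replicate 2 labelled KO and in the test against 1.2-fold. Eno2, the neuronal form, was rare, with 0.745, 1.48 and 1.12 CPM in WT-labelled libraries and 0.520, 0.575 and 0.344 in KO-labelled ones (edgeR adjusted p = 0.11), and passed in DESeq2 alone among the alternatives run.

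The last steps yield pyruvate and lactate. Pkm, the pyruvate kinase of muscle and most other tissues, had 436, 431 and 422 CPM in WT-labelled libraries and 667, 649 and 642 in KO-labelled ones (log2 change 0.60, SE 0.032, edgeR adjusted p = 4.0e-07). Counts per gene do not separate its splice forms. Ldha (ENSMUSG00000063229, chromosome 7, 46841475 to 46855627, plus strand) is the lactate dehydrogenase subunit of fast muscle and many other tissues. Ldha had 486, 472 and 507 CPM in WT-labelled libraries and 812, 801 and 798 in KO-labelled ones, a 1.65-fold rise (log2 change 0.72, SE 0.034, edgeR adjusted p = 1.5e-07). Ldhb, the subunit of heart and oxidative tissue, had 179, 193 and 177 against 244, 248 and 232 CPM, a 1.32-fold rise (log2 change 0.40, SE 0.047, edgeR adjusted p = 1.4e-04). Neither subunit overlapped between groups, and Ldhc, the testis form, had at most 15 counts in any library.

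**Figure D2:**
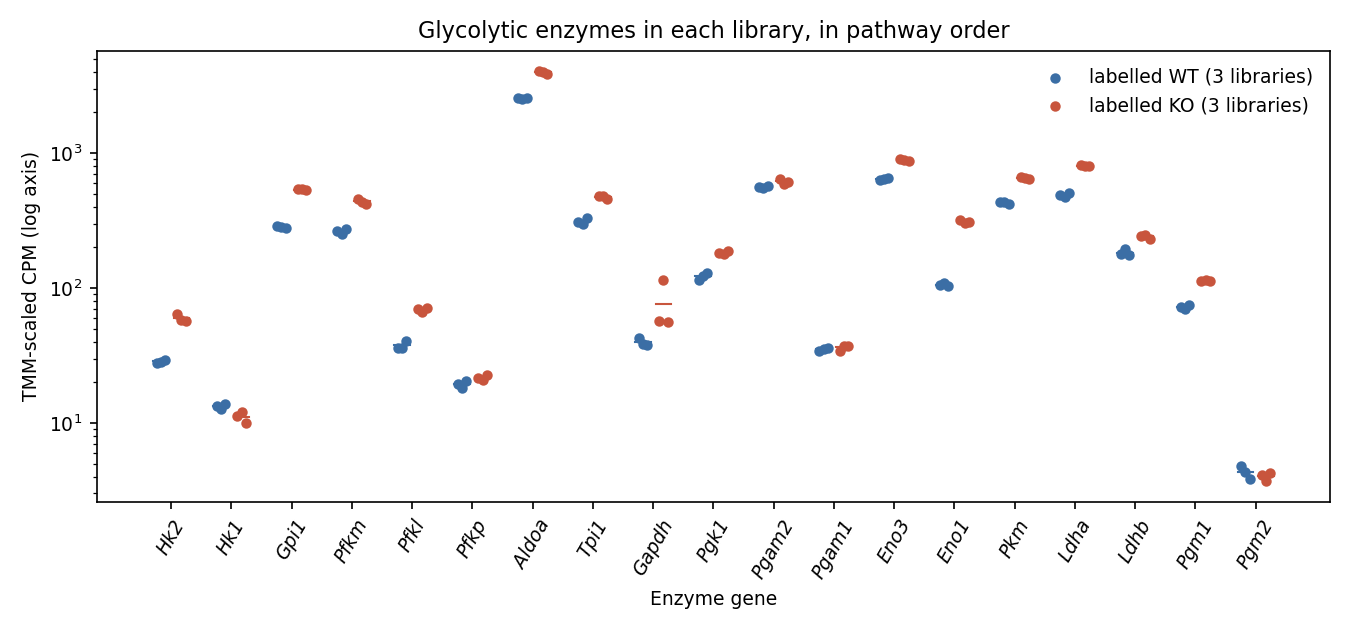
TMM-scaled CPM (log axis) of 19 enzyme genes in pathway order, 1 point per library and a bar at each group mean, for the WT-labelled libraries and KO. The groups are apart for most enzymes, close together for Hk1, Pgam2, Pgam1, Pfkp and Pgm2, and 1 Gapdh point stands above the rest of its group.

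Muscle and ubiquitous isoforms both held members that rose, and the contrast within a step differed from enzyme to enzyme. Listed as muscle isoforms were Hk2, Pfkm, Aldoa, Pgam2, Eno3, Ldha, Fbp2 and Pgm1. Of these 8, 7 rose and 0 fell (11.5% and 10.5% over all tested genes), with a median log2 change of 0.64. Listed as ubiquitous were Hk1, Pfkl, Pfkp, Pgam1, Eno1, Ldhb and Pgm2. Of these 7, 3 rose and 0 fell against the same shares, with a median of 0.17. These classes are lists and do not measure where an isoform is made. Aldoa has no ubiquitous partner in them, and Ldhb, the subunit of heart and oxidative tissue, is listed as ubiquitous. Aldoa, Ldha and Pgm1 are listed as muscle isoforms but are also made in many other tissues, so the class medians depend on this listing. The other listed muscle isoforms had log2 changes of 1.06 (Hk2), 0.73 (Pfkm), 0.47 (Eno3), 0.14 (Pgam2) and -0.02 (Fbp2). The Ldha to Ldhb and Pgm1 to Pgm2 ratios therefore do not cleanly set muscle against ubiquitous isoforms. All 5 main enzymes of the steps not in these classes (Gpi1, Tpi1, Gapdh, Pgk1 and Pkm) rose, with a median of 0.60, although the Gapdh call was lost in the alternatives named above. Of 14 isoforms of other tissues, 6 were tested and 0 were called by edgeR, with 1 at an unadjusted p under 0.05 (Eno2, called by DESeq2 as above).

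Ratios within a library, which need no scaling between libraries, showed the contrast directly. The FPKM of Eno3 was 18.7, 18.05 and 19.6 times that of Eno1 in WT-labelled libraries and 8.80, 9.02 and 8.76 times in KO-labelled ones, a log2 difference of -1.08 towards the ubiquitous form. The Hk2 to Hk1 ratio of FPKM moved the other way, from 2.97, 3.22 and 3.05 to 8.09, 6.94 and 8.21, a log2 difference of 1.33 towards the muscle form. These 2 pairs had the widest gaps between groups, in opposite directions.

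The other pairs moved less. The log2 difference in the FPKM ratio was 0.74 for Pgm1 over Pgm2, 0.55 for Pfkm over Pfkp and 0.32 for Ldha over Ldhb, all higher in KO-labelled libraries, and -0.14 for Pfkm over Pfkl. In each of these pairs the groups did not overlap. The Pgam2 to Pgam1 ratio overlapped between groups (log2 difference 0.10, exact two-sided permutation p = 0.3). For each of the other 6 ratios the exact two-sided permutation test gave p = 0.1, the smallest possible with n = 3 in each group, and 0.117 after Benjamini-Hochberg adjustment over the 7 ratios. Summing Eno1 with its copy Eno1b, an alternative chosen after seeing the data, gave a log2 difference of -0.97 for the enolases.

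**Figure D3:**
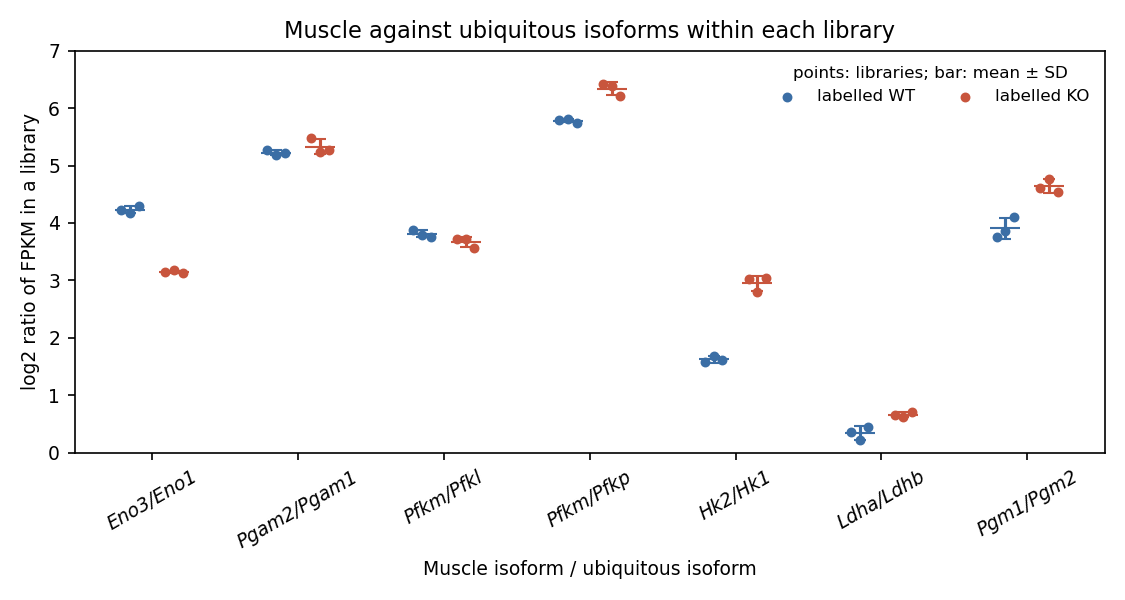
Log2 ratio of the FPKM of an isoform listed as muscle to that of one listed as ubiquitous for 7 pairs. Each library is 1 point, with the mean ± SD of each group. The Eno3/Eno1 ratio is lower in KO-labelled libraries, the Hk2/Hk1 ratio is higher, and the Pgam2/Pgam1 groups overlap.

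As shares of a step's FPKM, the isoform listed as muscle kept the majority in all 6 libraries. Eno3 made up 93.6% to 94.2% of enolase FPKM in WT-labelled libraries and 88.9% to 89.1% in KO-labelled ones, and Eno1 4.81% to 5.19% and 9.87% to 10.2%. Pfkm made up 91.5% to 92.1% and 91.1% to 91.9% of phosphofructokinase FPKM. Pgam2 made up 97.3% to 97.5% and 97.4% to 97.8% of mutase FPKM, without Bpgm. Ldha made up 53.7% to 57.6% of lactate dehydrogenase FPKM in WT-labelled libraries and 60.5% to 61.9% in KO-labelled ones.

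Among 8 enzymes of gluconeogenesis and glucose phosphate handling, 6 were tested, 2 rose and 0 fell (11.5% and 10.5% over all tested genes). Pgm1, which links glucose phosphate to glycogen, had 71.95, 70.4 and 74.4 CPM in WT-labelled libraries and 113, 114 and 112 in KO-labelled ones (log2 change 0.64, SE 0.049, edgeR adjusted p = 5.6e-06). G6pc3, the widely expressed glucose phosphatase, had 7.97, 5.42 and 9.89 against 12.5, 12.8 and 12.6 CPM without overlap (log2 change 0.70, SE 0.18, edgeR adjusted p = 0.018), a call lost without replicate 1 labelled WT or replicate 1 or 2 labelled KO and against 1.2-fold. Of the liver enzymes in the set, Fbp1 had at most 14 counts and G6pc at most 12 in any library, beside the hepatocyte markers given above. Fbp2, the muscle bisphosphatase, had 4.39, 3.83 and 4.04 CPM in WT-labelled libraries and 3.51, 2.74 and 5.83 in KO-labelled ones, overlapping values whose log2 difference of -0.02 changed sign with the FPKM scale. Galm and Minpp1 did not pass, nor did Pgm2, whose difference also changed sign on that scale.

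The 18 remaining genes, those of alcohol, aldehyde and acetate metabolism and the untested Aldoart1, were called about as often as genes in general. Of 16 tested, 2 rose and 3 fell (11.5% and 10.5% over all tested genes), with a median log2 change of -0.04. The acetyl-CoA synthetases Acss1 (mitochondrial) and Acss2 (cytosolic and nuclear), which activate acetate, rose by 0.41 and 0.64 on the log2 scale (edgeR adjusted p = 0.014 and 2.2e-04). Acss2 had 24.7, 23.9 and 24.5 CPM in WT-labelled libraries and 41.5, 37.3 and 35.5 in KO-labelled ones, and Acss1 27.3, 22.7 and 30.03 against 34.9, 35.9 and 35.3, without overlap in either case. The Acss1 call was lost without replicate 2 labelled KO and against 1.2-fold.

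Akr1a1, an aldehyde reductase, had 109, 111 and 112 CPM in WT-labelled libraries and 98.7, 92.8 and 97.2 in KO-labelled ones (log2 change -0.20, SE 0.048, edgeR adjusted p = 0.012). That small fall was not called without replicate 2 labelled KO or in the test against 1.2-fold. On FPKM as deposited it was not called either, at a log2 difference of -0.05. Aldh1a3, which makes retinoic acid, had 5.72, 5.99 and 4.99 CPM in WT-labelled libraries and 1.15, 0.643 and 0.785 in KO-labelled ones, 6.46-fold lower (log2 change -2.69, SE 0.26, edgeR adjusted p = 3.3e-05). Aldh3a1 was counted 14, 71 and 24 times in WT-labelled libraries and 0, 0 and 3 times in KO-labelled ones (edgeR adjusted p = 0.016), a call lost without replicate 2 labelled WT or replicate 1 or 2 labelled KO. Their FPKM was low, and Aldh1a3 and Aldh3a1 were named here only once their values were known. The abundant Adh1, an alcohol dehydrogenase, and Aldh2, the mitochondrial aldehyde dehydrogenase, had log2 differences of -0.18 and 0.15 that did not pass (edgeR adjusted p = 0.15 and 0.11). Aldh2 passed in DESeq2 and on FPKM as deposited, and Adh1 without replicate 2 labelled KO.

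**Figure D4:**
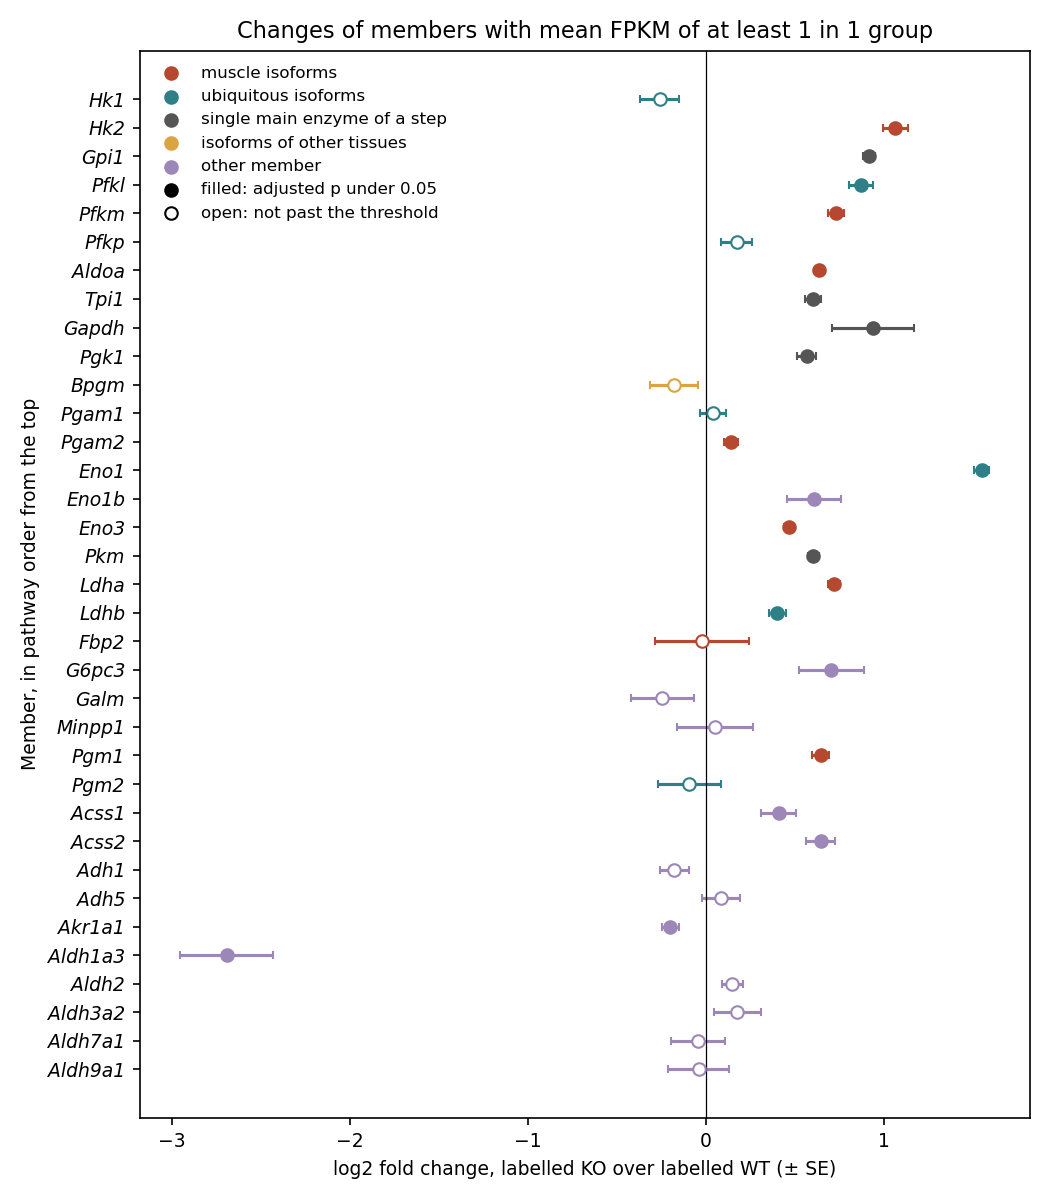
Log2 fold change (labelled KO over labelled WT, ± SE from edgeR) of the 35 members whose mean FPKM reached 1 in a group, in pathway order from the top and coloured by isoform class. Filled points passed an adjusted p of 0.05 and lie mostly to the right of 0 down to Pgm1, with Eno1 furthest to the right and Aldh1a3 furthest to the left.

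Genes that carry glucose, lactate and pyruvate across membranes, which lie outside the KEGG term, included several that rose. Of 11 transport genes tested, 6 rose and 0 fell (11.5% and 10.5% over all tested genes), with a median log2 change of 0.61. Slc2a4, the insulin-responsive glucose transporter of muscle and fat, had 91.4, 89.5 and 81.4 CPM in WT-labelled libraries and 182, 174 and 165 in KO-labelled ones (log2 change 0.99, SE 0.059, edgeR adjusted p = 8.5e-07). Mpc1, a subunit of the mitochondrial pyruvate carrier, had 74.5, 68.8 and 68.6 against 159, 149 and 148 CPM (log2 change 1.11, SE 0.055, edgeR adjusted p = 2.1e-07). In both genes every library labelled KO lay above every library labelled WT.

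Mpc2, the partner of Mpc1, rose by 0.61 and the lactate exporter Slc16a3 by 0.80 on the log2 scale (edgeR adjusted p = 6.8e-06 and 0.0094). Bsg, the chaperone of Slc16a3, rose by 0.65 and the glucose transporter Slc2a12 by 1.19 (edgeR adjusted p = 8.0e-06 and 0.017). Slc2a12 was rare, with a mean FPKM of 0.197 in WT-labelled libraries and 0.504 in KO-labelled ones. Slc2a1, the glucose transporter of most cells, stood at 1.95, 2.18 and 1.18 CPM in WT-labelled libraries and 2.13, 2.76 and 3.20 in KO-labelled ones, and did not pass. Slc2a3, Slc16a1, Slc16a7 and Emb did not pass either.

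Of 22 listed regulators of the pathway, 21 were tested, 9 rose and 2 fell (11.5% and 10.5% over all tested genes), with a median log2 change of 0.09. The bifunctional enzymes that set the activator of phosphofructokinase moved in both directions. Pfkfb3, their widely expressed and inducible form, fell from 26.7, 25.00 and 22.04 CPM to 13.3, 13.4 and 18.02 (log2 change -0.72, SE 0.13, edgeR adjusted p = 0.0025). Pfkfb1, the form of liver and muscle, rose by 0.74 and Pfkfb4 by 0.89 (edgeR adjusted p = 8.7e-04 and 6.3e-04).

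Hif1a, the oxygen-sensitive factor that drives many glycolytic genes in hypoxia, fell from 15.2, 15.6 and 15.97 CPM to 12.1, 9.30 and 11.5 (log2 change -0.51, SE 0.12, edgeR adjusted p = 0.0093), while Epas1 and Arnt did not pass. The carbohydrate-response factor Mlxipl rose by 0.61, its relative Mlxip by 0.36, and Srebf1, a factor of lipid and glucose metabolism, by 0.45 on the log2 scale (edgeR adjusted p = 7.2e-05, 0.016 and 0.0037). Esrra, a nuclear receptor of energy metabolism, rose by 0.64, and Prkaa2, the muscle catalytic subunit of AMP-activated kinase, by 0.997 (edgeR adjusted p = 9.7e-05 and 4.2e-04). Tigar, a fructose bisphosphatase, and Pgp, a phosphatase that removes glycolytic by-products, rose by 0.60 and 0.35 (edgeR adjusted p = 0.0017 and 0.009).

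**Figure D5:**
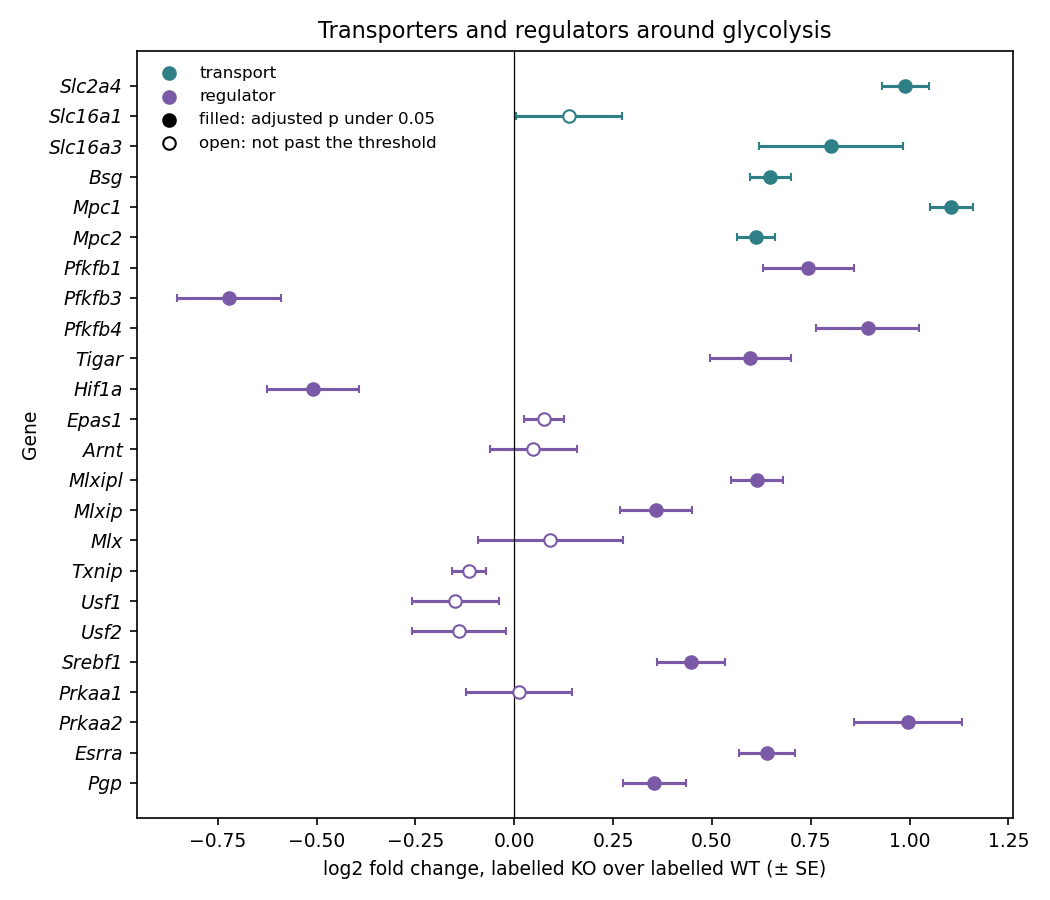
Log2 fold change (labelled KO over labelled WT, ± SE from edgeR) of the 24 transport and regulator genes outside the KEGG term whose mean FPKM reached 1 in a group, filled where the adjusted p was under 0.05. Slc2a4 and Mpc1 lie furthest to the right among the transporters drawn, and Pfkfb3 and Hif1a are the 2 filled points left of 0.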

How the data were processed

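Poly(A) RNA of 6 libraries labelled mouse aorta was analysed, 3 labelled WT and 3 labelled KO, all treated with Ang II, with groups taken from the genotype label. The authors deposited a single table of 33919 genes. Its count columns are whole-number gene counts without normalization, as the authors deposited them, and its other columns are FPKM per the file headers. Bowtie 0.12.2, HISAT2 2.0 and mm8 appear in the submitters' processing notes without their roles. For the counting program, the use of strand and the FPKM formula, nothing is given in the sources used here. Gene positions equalled those of the GENCODE annotation of GRCm38 for 91.1% of 33815 shared genes (49 of the 58 members), so they are given as GRCm38. Low counts fell on multiples of 4 in 33.0% to 34.9% of values, so counts may overstate independent fragments. There were 0 unnamed rows and 0 unused value columns.

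Counts were fitted in edgeR 4.0.16 (R 4.3.3) over all genes kept by filterByExpr, with TMM scaling, genotype as the only term and two-sided quasi-likelihood tests adjusted over 16620 genes by Benjamini-Hochberg at 0.05. Isoform ratios used FPKM within a library and exact two-sided permutation tests (scipy 1.17.1). Levels are compared between genes only in FPKM. Members and lists were chosen with earlier results of these data known. Step and gluconeogenesis members that passed the filter were described, and others were named if they were called and their mean FPKM reached 2 in a group, or were the highest of their family. Some genes this rule picks are not named. Alternatives were median-ratio size factors, DESeq2 1.42.0, no filter, robust shrinkage, a replicate block, removal of mitochondrial genes, counts divided by 4, glmTreat against 1.2-fold, limma 3.58.1 on log2(FPKM + 1) or log2(FPKM + 0.1) for genes whose mean FPKM reached 1 in a group, the former also without that filter or with median-ratio scaling, and leaving out each library. The scripts were tested on simulated counts (16027 genes, 200 changed): 21% of 1.5-fold and 56% of 2-fold changes were recovered, with 10 false calls. Promoters are RefSeq windows (GRCm38.p6) matched by symbol and chromosome. A comparison of protein sequences of the isoforms was planned and is not analysed here.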

Additional observations from a re-analysis of the deposited data

How the results depend on the processing

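The count of members called higher (19) stayed between 15 and 20 in every alternative run, and 15 of the 22 named members that were called kept their call and direction in all of them. The calls of Gapdh, Pgam2, Eno1b, G6pc3, Acss1, Akr1a1 and Aldh3a1 were lost in at least 1. The count called lower (3) was 5 with DESeq2 and 1 with limma on log2(FPKM + 1), on log2(FPKM + 0.1) and on log2(FPKM + 1) without a filter. The median log2 change of tested members (0.17) was 0.49, 0.55 and 0.086 in those 3 limma fits and 0.25 with median-ratio scaling, where the numbers of members tested were 35, 35, 56 and 36. The median of all genes was 0.15 and 0.20 in the first 2 limma fits, against -0.02 in edgeR.

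With each library left out in turn, 16 to 19 members were called higher and 2 to 3 lower, the median was 0.14 to 0.21, and the summed FPKM ratio 1.51 to 1.61. The log2 differences of isoform ratios ranged from -1.11 to -1.05 for Eno3/Eno1, 1.28 to 1.40 for Hk2/Hk1, 0.26 to 0.37 for Ldha/Ldhb, -0.17 to -0.096 for Pfkm/Pfkl, 0.51 to 0.62 for Pfkm/Pfkp, 0.025 to 0.14 for Pgam2/Pgam1 and 0.66 to 0.84 for Pgm1/Pgm2. Of the members reported, only ones that were not called changed sign. With a library left out, the log2 change ranged from -0.41 to 1.03 for Hk3 (-0.41 without replicate 2 labelled WT, -0.38 without replicate 1 labelled KO), -0.098 to 0.19 for Minpp1 (-0.098 without replicate 1 labelled WT, -0.018 without replicate 1 labelled KO) and -0.39 to 0.19 for Fbp2 (0.032, 0.067 and 0.19 without replicate 1 labelled WT and replicates 1 and 2 labelled KO). Fbp2 was 0.053, 0.057 and 0.053 in the limma fits without median-ratio scaling, where Pgm2 was 0.034, 0.054 and 0.034. The cause of these shifts was not tested.

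Replicates of the same number in both groups shared only the number: their deviations from the group means correlated at 0.0243, -0.0086 and 0.0178. With the number as a replicate block, 19 members were called higher and 3 lower, the median was 0.19, and an exact paired test of a ratio could not go below p = 0.25.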

Other observations

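The make-up of the pathway's transcripts shifted, with larger shares of Aldoa and several other enzymes and a smaller share of Pgam2. Aldoa made up 31.2% to 31.9% of the summed FPKM of all 58 members in WT-labelled libraries and 35.0% to 35.2% in KO-labelled ones. The share of Pgam2, the muscle mutase, was 23.8% to 24.5% and 18.3% to 19.4%. Eno3, the muscle enolase, held 13.3% to 13.5% in WT-labelled libraries and 13.1% to 13.2% in KO-labelled ones. Eno1 made up 0.714% of the sum on average in WT-labelled libraries and 1.49% in KO-labelled ones. Mean shares also went from 1.60% to 2.15% for Gpi1, from 5.34% to 6.26% for Ldha and from 2.86% to 3.38% for Pfkm. Akr1a1, the aldehyde reductase, went from a mean of 1.46% to 0.902%, and Adh1, the alcohol dehydrogenase, from 0.914% to 0.575%. These shares add up within a library, so a larger share of one enzyme lowers the others, and they were not tested.

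The 2 largest processed copies of Gapdh held more counts together than the gene itself in 5 of 6 libraries. Gapdh-ps15 had 2584, 2157 and 2395 counts in WT-labelled libraries and 4701, 4715 and 4659 in KO-labelled ones, and Gapdh-ps16 had 1777, 1500 and 1543 against 3341, 3366 and 3350. Gapdh had 2846, 2313 and 2368 counts against 4056, 8381 and 4040, so the library with a high Gapdh count did not have high counts in these copies.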
